A study of Mus musculus with 62 samples.

Results

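The deposited list of regions with less H3K27ac in quadriceps of mice overexpressing PGC1α than in wild-type quadriceps held 844 regions. Of these, 391 are described here. They overlapped an H3K27ac peak of soleus by at least 1 bp, or overlapped no H3K27ac peak of quadriceps. The 391 regions fell into 3 kinds of place. 253 overlapped a peak in both quadriceps (Quad) and soleus (Sol), 26 overlapped a peak in Sol only, and 112 overlapped a peak in neither. The other 453 hypoacetylated regions lay in Quad peaks without a Sol peak and are given here only for comparison.

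The study profiled 2 histone marks by ChIP-seq in male mice, C57BL/6 in the labels and C57BL/6J in the methods, with 2 libraries per mark in each of 8 groups. Wt and mTg were sedentary littermates without and with a Pgc1a (Ppargc1a) transgene driven by the muscle creatine kinase promoter, so the transgene was constitutive and restricted to striated muscle, and the age of these mice is not given in the sources used here. Sed and Ex mice carried no transgene and were housed without or with a running wheel from 8 weeks of age for 4 weeks. Quad, Sol, EDL (extensor digitorum longus) and Dia (diaphragm) came from sedentary wild-type mice. Each Wt, mTg, Sed, Ex and Quad library came from 1 animal and each Sol, EDL and Dia library from a pool of 3 animals. Depth of the Wt and mTg H3K27ac libraries was 11.7 to 14.9 M tags, and that of all 32 histone libraries was 6.41 to 24.2 M. For Dia replicate 2 the deposited lists give 19.2 M tags for H3K27ac and 18.2 M for H3K4me2. The paper's read counts give these values the other way round, and the conflict was not resolved. Whole muscle was used, so fewer cells of a type and less mark per cell cannot be told apart.

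H3K27ac, acetylation of lysine 27 in the tail of histone H3, is found at enhancers and promoters in use. H3K4me2, dimethylation of lysine 4 of the same histone, also sits at enhancers that are poised. PGC1α is a transcriptional coactivator that drives mitochondrial and oxidative programs in muscle, partly through estrogen-related receptors (ERRs) and MEF2 factors. Quadriceps and EDL are mostly fast glycolytic muscles, while soleus and diaphragm are richer in oxidative fibers.

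The sequences under the deepest losses give a view of what these regions are made of. The 6 largest falls of each kind of place were ranked together, and for the first 8 of these 18 regions, 200 bp at the centre of the strongest ATAC (transposase-accessible chromatin) peak of control Quad are shown, on the plus strand of mm10, 5′ to 3′. They are named by nearest gene. Capitals mark a match on either strand to one of 7 factor words, which were GGAATG (TEAD), CAGCTG (E-box), TGACTCA (AP-1), CTATTTTTA (MEF2), TCAAGGTCA (ERR), AGGTCA (nuclear receptor) and GGAAAA (NFAT). The ERR word contains the nuclear receptor word.
Mir152 region, chr11:96872666-96872865: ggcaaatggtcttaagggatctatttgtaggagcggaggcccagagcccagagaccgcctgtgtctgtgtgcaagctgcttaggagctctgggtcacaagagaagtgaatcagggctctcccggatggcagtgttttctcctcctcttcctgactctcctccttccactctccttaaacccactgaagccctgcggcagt
Mir582 region, chr13:109440944-109441143: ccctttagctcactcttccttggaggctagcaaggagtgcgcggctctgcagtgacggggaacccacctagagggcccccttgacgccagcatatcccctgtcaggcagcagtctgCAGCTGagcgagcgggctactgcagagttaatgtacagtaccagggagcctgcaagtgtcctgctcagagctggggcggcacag
Zcchc6 region, chr13:59875823-59876022: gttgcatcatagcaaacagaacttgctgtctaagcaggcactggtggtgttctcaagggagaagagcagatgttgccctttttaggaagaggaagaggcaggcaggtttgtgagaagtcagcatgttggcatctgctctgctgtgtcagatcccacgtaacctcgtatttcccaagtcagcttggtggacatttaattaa
Mir582 region, chr13:109486265-109486464: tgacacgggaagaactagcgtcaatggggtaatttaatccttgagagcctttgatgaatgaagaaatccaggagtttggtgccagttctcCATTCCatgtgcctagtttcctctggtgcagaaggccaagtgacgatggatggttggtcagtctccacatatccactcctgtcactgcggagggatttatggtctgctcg
Gm19299 region, chr9:67137258-67137457: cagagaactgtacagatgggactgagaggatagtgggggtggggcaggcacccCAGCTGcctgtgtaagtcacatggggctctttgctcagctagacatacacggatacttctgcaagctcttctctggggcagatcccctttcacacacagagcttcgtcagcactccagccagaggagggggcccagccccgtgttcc
Phkb region, chr8:85860719-85860918: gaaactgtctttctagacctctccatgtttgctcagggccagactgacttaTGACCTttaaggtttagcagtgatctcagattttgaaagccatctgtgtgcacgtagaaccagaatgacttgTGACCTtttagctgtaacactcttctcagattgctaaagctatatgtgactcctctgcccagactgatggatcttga
Mir3066 region, chr12:17448912-17449111: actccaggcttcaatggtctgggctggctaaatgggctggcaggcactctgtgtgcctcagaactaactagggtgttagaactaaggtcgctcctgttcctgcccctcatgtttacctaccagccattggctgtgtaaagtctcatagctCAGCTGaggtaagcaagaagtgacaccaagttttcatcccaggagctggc
Cog4 region, chr8:110870511-110870710: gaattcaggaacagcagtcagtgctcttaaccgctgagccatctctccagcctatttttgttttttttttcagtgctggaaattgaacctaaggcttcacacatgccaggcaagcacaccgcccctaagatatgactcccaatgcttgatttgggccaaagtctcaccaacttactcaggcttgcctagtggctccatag
In these 8 windows an E-box was found near Mir582 at position 117, near Gm19299 at position 54 and near Mir3066 at position 151, counted from 1 at the left end. The Phkb window held 2 nuclear receptor words, at positions 52 and 124, and the second Mir582 window held 1 TEAD word at position 91. The windows near Mir152, Zcchc6 and Cog4 held none of the 7 words. A match is a description of letters and not a sign of binding.

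Across all members the E-box was the most frequent word. Of 259 ATAC peaks centred in a member, 35.9% held it (Wilson 95% interval 30.3 to 41.9%), against 21.4% of all 44911 ATAC peaks and 31.2% (26.4 to 36.4%) of the 327 peaks centred in the Quad-only regions. The NFAT word was in 23.9% (19.1 to 29.5%) of member peaks, 15.3% of all peaks and 11.6% (8.58 to 15.5%) of peaks in the Quad-only regions. The nuclear receptor word was in 22% (17.4 to 27.4%), 16.3% and 27.2% (22.7 to 32.3%) respectively. Shares of the TEAD word (12% in members, 11.8% in all peaks) and of the AP-1 word (9.27% and 8.29%) lay close to the background. MEF2 and ERR words were rare, with 2 and 1 of the 259 member peaks holding one, against 1.43% and 0.316% of all peaks. Median GC content of the windows was 51.0% in members and 53.0% in all ATAC peaks. Intervals cover counting error over regions only, and no test of these shares was made.

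Because the contrast of mTg with Wt chose these regions, their fall is described without a test. Levels are log2 values of tags per region, as deposited and scaled within the list. The median level over the 391 regions was 6.10 and 6.07 in the Wt libraries and 5.47 in both mTg libraries. The median difference of mTg minus Wt was −0.61, a ratio of 0.657 on this scale. The authors called the list at a 2-fold change, so these differences cannot be read as fold changes of tags. Differences ran from −1.92 to −0.36, and in every one of the 391 regions both mTg libraries lay below both Wt libraries, as they did in 100% of the whole list. The regions in Quad and Sol had the highest levels and the largest falls, with a median difference of −0.69 (quartiles −0.84 and −0.57). It was −0.53 (−0.60 and −0.47) in Sol only and −0.50 (−0.56 and −0.45) in neither. In the Quad-only regions the median difference was −0.65. The part of level in these differences between kinds of place was not tested. A fall of more than 1 on the log2 scale was found at 36 of 253, 1 of 26 and 2 of 112 regions.

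**Figure D1:**
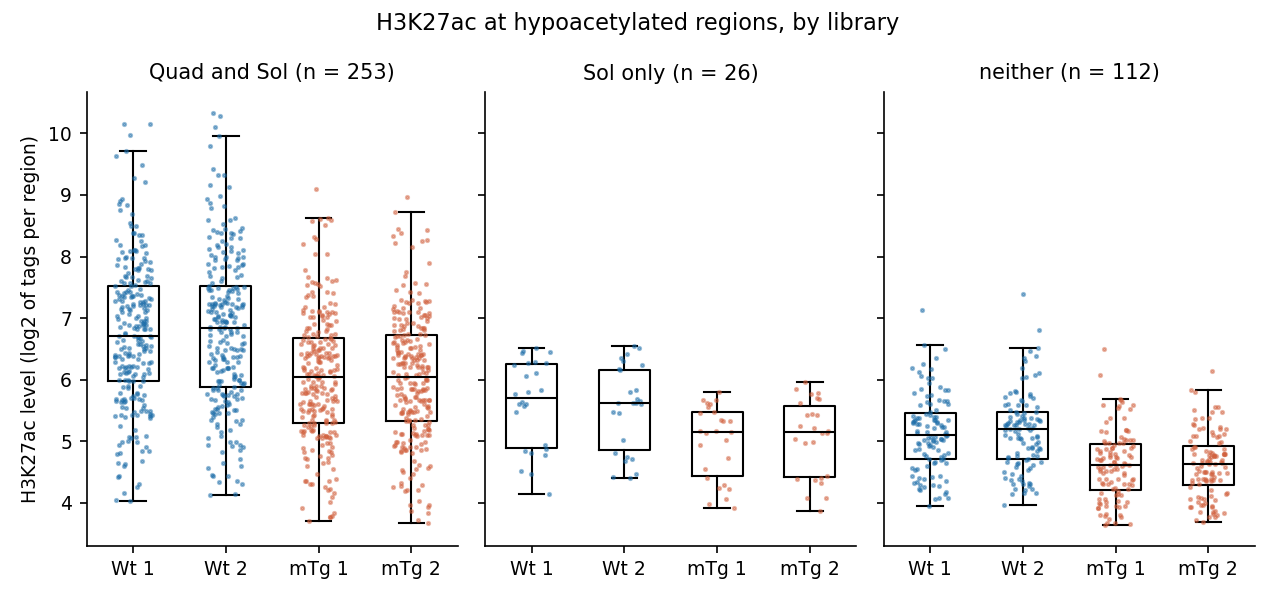
H3K27ac level (log2 of tags per region) at the 391 regions in each Wt and mTg library, by kind of place. Points are regions, and boxes give median and quartiles, with whiskers to the farthest region within 1.5 box lengths. Regions in Quad and Sol start highest, with medians of 6.71 and 6.84 in Wt against 6.04 in both mTg libraries, and regions in neither start lowest, with 5.10 and 5.20 against 4.62 and 4.64.

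The regions were distal elements more often than not. 219 were intragenic, 162 intergenic and 10 promoters, or 56.0%, 41.4% and 2.56% of members, against 58.2%, 31.6% and 10.2% of all 49010 Wt H3K27ac peaks. 150 regions lay more than 50 kb from the nearest start site (38.4%, against 25.6% of Wt peaks). Median width was 2359 bp in Quad and Sol, 1660 bp in Sol only and 1435 bp in neither. CpG content was low, and 3 regions reached an observed to expected CpG ratio above 0.6, whereas 11.7% of all Wt peaks did. The promoters included that of Dlg4, which encodes a synaptic scaffold protein, with a mean level of 5.88 in Wt and 5.38 in mTg. It was picked from the 10 after its values were seen.

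At the sites shared by Quad and Sol, the 6 largest falls lay nearest to Mir152, Mir582, Zcchc6, Gm19299 and Phkb. A region 23185 bp from the microRNA gene Mir152 (chr11:96872288-96874869, intergenic) had levels of 7.36 and 7.49 in Wt and 5.50 and 5.50 in mTg. The difference was −1.92, the largest of all members. 2 regions nearest the microRNA gene Mir582 lie in introns of Pde4d, which encodes a phosphodiesterase that degrades cAMP. The first (chr13:109439855-109452224), 12369 bp wide, had levels of 10.14 and 10.34 in Wt against 8.63 and 8.25 in mTg. The second (chr13:109484887-109487445) had 6.70 and 7.11 in Wt against 5.49 and 5.35 in mTg. At both Pde4d sites every mTg library lay below every Wt library, as in 100% of the whole list.

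Zcchc6 (Tut7) encodes a terminal uridylyltransferase that tags RNA for decay. The intergenic region at −53124 bp from its start site (chr13:59873457-59879086) had levels of 8.19 and 8.26 in Wt and of 6.51 and 6.75 in mTg. The region in the noncoding gene Gm19299 (chr9:67129923-67142594), 12671 bp wide and the widest member, had 9.71 and 9.80 against 8.31 and 8.27. Its nearest protein-coding start site was that of Tpm1, the alpha-tropomyosin gene of the thin filament, at −86852 bp. Phkb encodes the beta subunit of phosphorylase kinase, which switches on glycogen breakdown. Its intronic region (chr8:85856544-85866759) had 9.98 and 10.09 in Wt against 8.58 and 8.72 in mTg. A further intronic site in Phkb (chr8:86031753-86038908) fell from 9.63 and 9.95 to 8.61 and 8.45. All 6 leading shared sites carried H3K27ac peaks in Quad and Sol, by the rule, and also in EDL, Dia, Sed and Ex. Over all 253 regions in Quad and Sol the shares were 88.5% in EDL, 71.5% in Dia, 89.7% in Sed and 77.1% in Ex.

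**Figure D2:**
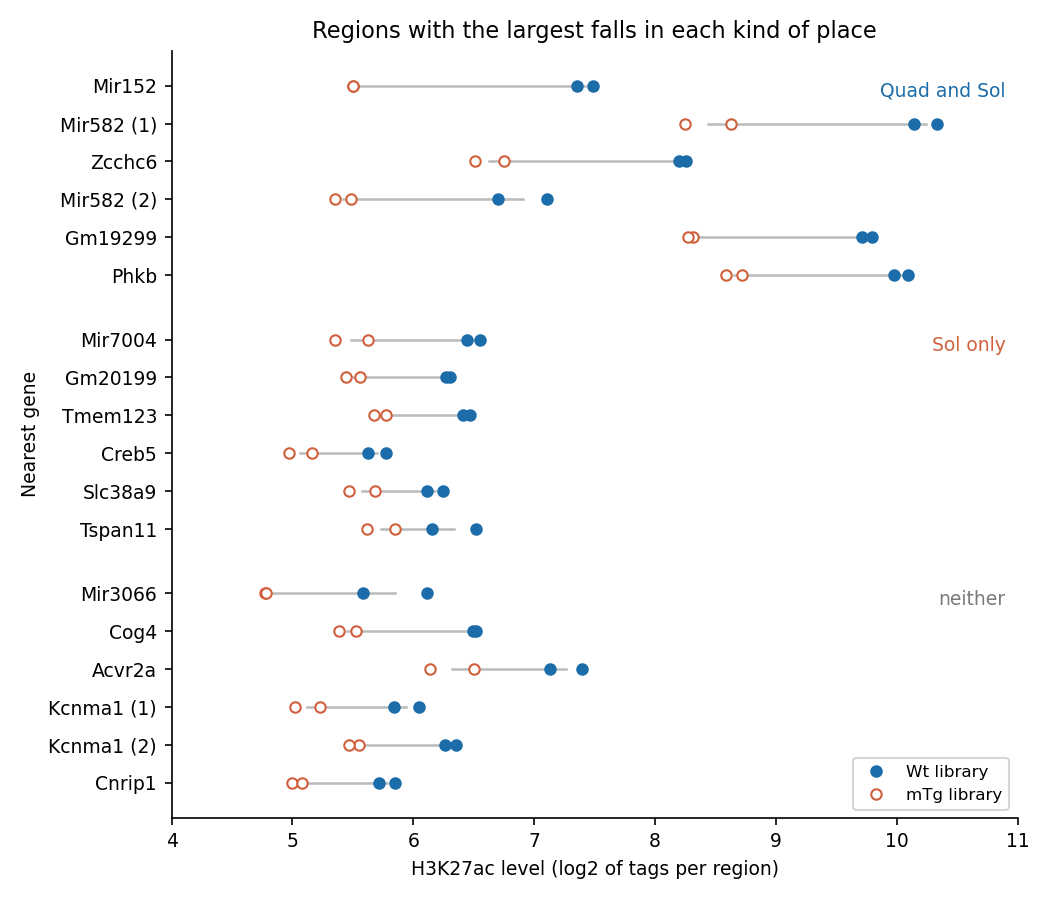
H3K27ac level (log2 of tags per region) in the 2 Wt (filled) and 2 mTg (open) libraries at the 6 regions with the largest falls in each kind of place, named by nearest gene, with a line between group means. The fall at Mir152 was −1.92, and that at Tspan11 −0.60.

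The Sol-only regions with the largest falls were weaker sites. The region 12137 bp from Mir7004 (chr2:168627895-168629349) had levels of 6.44 and 6.55 in Wt and of 5.35 and 5.62 in mTg, and its nearest protein-coding gene was Nfatc2, a calcineurin-dependent transcription factor. An intronic region of Arih1, a ubiquitin ligase gene, which the files assign to Gm20199 (chr9:59445667-59447393), fell from 6.27 and 6.30 to 5.56 and 5.45. Tmem123 (chr9:7769337-7772836) had 6.47 and 6.41 against 5.67 and 5.77. The remaining 3 of the 6 lay in introns. Creb5 encodes a transcription factor of the CREB family, and its site (chr6:53336283-53338383) had 5.77 and 5.63 against 5.16 and 4.97. Slc38a9 encodes a lysosomal arginine sensor, and its site (chr13:112720576-112722314) had 6.12 and 6.25 against 5.47 and 5.68. Tspan11, a tetraspanin gene, had 6.52 and 6.15 against 5.62 and 5.85 (chr6:127932359-127934990). None of these 6 carried an H3K27ac peak in mTg, whereas 7 of all 26 Sol-only regions did (26.9%), as did 55.2% of all Wt peaks. They were picked for their falls in mTg, so this follows in part from the choice.

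Among regions in no Quad or Sol peak, the largest fall was at a site near Mir3066 (chr12:17447598-17449972), with levels of 5.58 and 6.11 in Wt and of 4.77 and 4.78 in mTg. Its nearest protein-coding start site was that of Odc1, encoding ornithine decarboxylase, which opens polyamine synthesis, at −96009 bp. The Cog4 site (chr8:110869134-110872240), in a gene for a Golgi tethering complex subunit, had 6.50 and 6.52 against 5.52 and 5.38. Acvr2a encodes a receptor for activins and myostatin, and the site at −496252 bp from its start (chr2:48316135-48319580) had 7.13 and 7.39 against 6.50 and 6.14. Kcnma1, the gene of the calcium-activated BK potassium channel, held 2 of the 6 sites. One (chr14:23706027-23708199) had 5.84 and 6.04 against 5.02 and 5.23, and the other (chr14:23665849-23667681) had 6.26 and 6.36 against 5.55 and 5.47. The Cnrip1 site (chr11:17074921-17076505) had 5.84 and 5.71 against 5.0 and 5.08. All 6 were nonetheless H3K27ac peaks in EDL and in Sed.

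Over all 112 regions in neither, the share with a peak in other samples was below that over all Wt peaks, though for Sed the background lay within the interval. The rule placed these regions by their lack of a Quad and a Sol peak, so lower shares elsewhere follow in part from it. All 112 overlapped a peak of Wt quadriceps. 51 overlapped a peak in EDL (45.5%, 36.6 to 54.8%, against 64.7% of all Wt peaks) and 62 in Sed (55.4%, 46.1 to 64.2%, against 62.1%). 34 overlapped a peak in Ex (30.4%, against 59.4%) and 10 in Dia (8.93%, against 55.8%). 25 of the 112 overlapped none of EDL, Dia, Sed and Ex. These lists were called separately, and the Wt list was the longest, with 49010 peaks of median width 1250 bp, against 40949 of 1551 bp in Quad and 34031 of 1857 bp in Sed. Of all Wt peaks, 25.8% overlapped neither a Quad nor a Sol peak, compared with 13.3% of the hypoacetylated regions. The part of peak calling in this kind of place was not tested.

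Several genes held groups of members. Merging members within 100 kb gave 328 loci, of which 281 held 1 region, 35 held 2 and 12 held 3 or more. The largest locus lay in Pde4d (chr13:109405636-109626856), with 6 members and 3 Quad-only regions within 100 kb. The files assign 5 of these to Mir582, with differences from −1.80 to −0.64. Beyond Mir582, A530065N20Rik and Pde10a were nearest to 4 members each, and Antxr2, Cops8 and E130006D01Rik to 3 each, as were 5 further genes. Pde10a encodes a phosphodiesterase that degrades cAMP and cGMP. Its site in the gene body (chr17:8651712-8654213) had 6.95 and 7.45 in Wt and 6.01 and 6.01 in mTg. A site at −179010 bp from Cops8, a COP9 signalosome subunit gene (chr1:90422306-90426524), had 8.10 and 8.31 against 6.79 and 6.96. In both genes the mTg libraries lay below the Wt libraries at every member, as in 100% of the whole list. 38 members (9.72%) had a nearest gene that was also nearest to a region hyperacetylated in mTg, against 16.6% of all Wt and mTg peaks, and no member overlapped such a region.

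The pathway lists touched few members. 14 lists were read by nearest gene, and each took from 0 to 6 of the 391 regions, at most 1.53%. The list named for muscle microRNA genes had the most hits, 6 regions nearest Mir152 and Mir582 (1.53%, against 0.117% of all Wt and mTg peaks). That list holds the leading regions already. The 5 Mir582 regions belong to the Pde4d locus above, and by nearest protein-coding gene the list took 0 members. G protein signaling took 5 (1.28%, against 0.447%). The largest falls there were at Pde7b (6.57 and 6.82 in Wt, 6.09 and 6.04 in mTg) and Pde4b (6.39 and 6.59 against 5.97 and 5.81), both phosphodiesterase genes, and the other 3 are only counted. Since all members fell by the rule, these counts give only which genes lie nearby. The paper already reported apoptosis, polyamine, BMP and G-protein-coupled terms for regions hypoacetylated in mTg. The lists here were written with results of these data known, so a share above background is no independent support.

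BMP and TGF-beta signaling took 3 regions (0.767%, against 0.595% of all peaks), the Acvr2a site above and 2 near Tgfbr3, which encodes the coreceptor betaglycan. The higher of these (chr5:107127455-107135971) had 8.94 and 9.32 in Wt against 8.20 and 8.33 in mTg. Myogenic and fiber-type factors also took 3 (0.767%, against 0.735%). Sox6, a repressor of slow-fiber genes, had 7.92 and 7.84 against 6.98 and 7.20 at a site 333539 bp away, and Hdac4, a repressor of MEF2, had 7.40 and 7.83 against 7.05 and 6.73, and 1 further region is only counted.

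Calcineurin and NFAT took 2 regions (0.512%, against 0.191%), both in Nfatc2. The higher (chr2:168585970-168590586) had 8.49 and 8.46 against 7.67 and 7.42, and the lower had 6.40 and 6.35 against 5.81 and 5.74. With the Mir7004 site these formed a locus of 3 members. Polyamine metabolism took 2 (0.512%, against 0.0575%), near Odc1 (chr12:17483581-17485494, 6.62 and 6.82 against 5.89 and 5.67) and in Sms, the spermine synthase gene (chrX:157475816-157478110, 6.42 and 6.73 against 5.70 and 5.86). By nearest protein-coding gene the Mir3066 site also counted, so that 2 members lay upstream of Odc1. Glycolysis and glycogen took the 2 Phkb sites (0.512%, against 0.362%).

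The remaining lists took 0 to 2 regions each. Lists with 2 regions (0.512%) had a background of 0.478% for AP-1 and early genes, 0.292% for cell survival and 0.317% for the membrane list. Lists with 1 region (0.256%) lay below theirs, which were 0.534% for sarcomere genes, 0.353% for calcium handling and 0.495% for oxidation. Sarcomere genes had Mylk2, the skeletal myosin light chain kinase (chr2:152897930-152901074), with 7.91 and 8.15 against 7.08 and 6.92. Calcium handling had Jph1, a junctophilin that holds the triad together (chr1:16984854-16988753), with 7.67 and 7.88 against 6.83 and 6.81. The AP-1 and early gene list had Fosl2 (7.13 and 7.33 against 6.29 and 6.48) and Egr3 (5.76 and 5.58 against 5.18 and 5.10). These pairs lay apart, as in 100% of the whole list, and they spanned strong and weak sites. The membrane list had Sntb1, a syntrophin gene (7.15 and 7.35 against 6.55 and 6.45), and Utrn, the utrophin gene (5.45 and 5.21 against 4.75 and 4.87). The cell survival list had Dapk1 (7.20 and 6.93 against 6.16 and 6.52) and Bid (5.41 and 5.44 against 4.94 and 4.99). Oxidation had Ppargc1b, the gene of the related coactivator PGC1β (5.25 and 5.35 against 4.72 and 4.90), and growth and atrophy genes took 0 of 391, against 0.411% of all peaks.

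Muscles outside the rule also carried these marks. H3K27ac peaks of EDL overlapped 291 of 391 members (74.4%, 95% interval 69.9 to 78.5%), against 64.7% of all Wt peaks and 76.8% of the Quad-only regions (72.7 to 80.5%), and those of Dia overlapped 204 (52.2%, 47.2 to 57.1%). Split by place, Dia peaks overlapped 71.5% of the regions in Quad and Sol (65.7 to 76.7%), 13 of 26 of those in Sol only and 8.93% of those in neither (4.92 to 15.7%), against 18.5% of the Quad-only regions (15.2 to 22.4%) and 55.8% of all Wt peaks. The places were sorted by Quad and Sol peaks, so this split may follow in part from the rule. With Quad and Sol counted, 166 of 391 regions carried H3K27ac in all 4 muscles, and 54 in none of them. By the rule the first can only be regions in Quad and Sol (166 of 253) and the second regions in neither (54 of 112). The same count over all Wt peaks was not made. An H3K27ac peak of mTg overlapped 127 members (32.5%, against 55.2% of all Wt peaks), 116 of them in Quad and Sol.

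**Figure D3:**
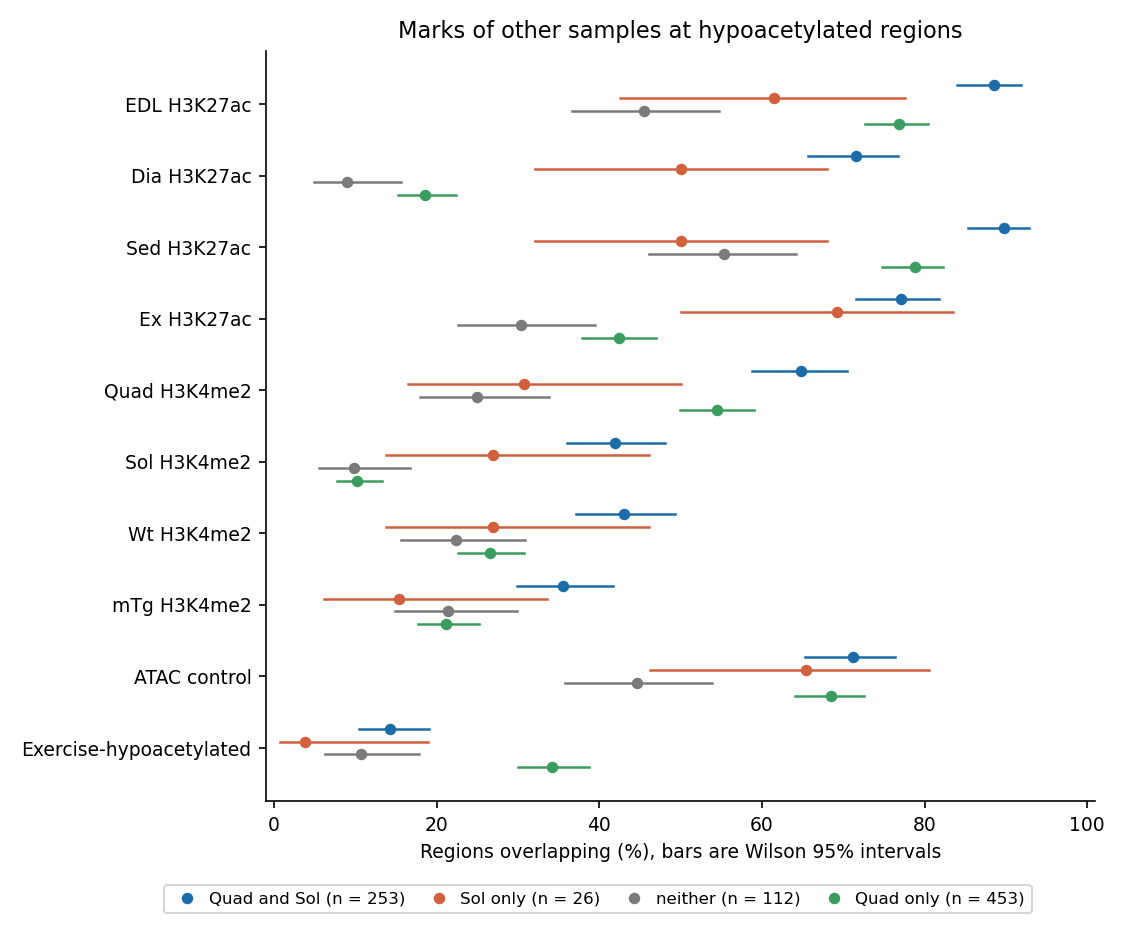
Share of regions (%) overlapping by at least 1 bp the peaks or regions named at left, for the 3 kinds of place and the 453 Quad-only regions. Bars are Wilson 95% intervals. Dia H3K27ac lies at 71.5% for Quad and Sol and at 18.5% for Quad only, and exercise-hypoacetylated regions lie at 14.2% and 34.2%.

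Levels across muscles were set side by side at regions matched one to one in both lists, at a reciprocal overlap of 50%, as log2 level per kb, with each library centred on all matched regions. The lists were normalized separately, so no test was made. At 132 of the 253 regions in Quad and Sol, the median of Sol minus Quad was −0.18 (quartiles −0.53 and 0.15). In 51 of the 132 (38.6%) both Sol libraries lay below both Quad libraries, against 27% of all 19463 matched regions, and in 28 (21.2%, against 33.8%) they lay above. Leaving out Quad replicate 1 took the median to −0.06. Dia minus EDL had a median of −0.14 at 96 members, with 43 lower without overlap (44.8%, against 28.0%) and 22 higher (22.9%, against 32.8%). That median was −0.34 without Dia replicate 1, −0.27 without EDL replicate 2, −0.068 without EDL replicate 1 and −0.032 without Dia replicate 2. Dia replicate 2 is the library whose tag total differs between the sources. For H3K4me2, Sol minus Quad had a median of −0.21 at 43 members, and 24 were lower without overlap (55.8%, against 32.5%).

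**Figure D4:**
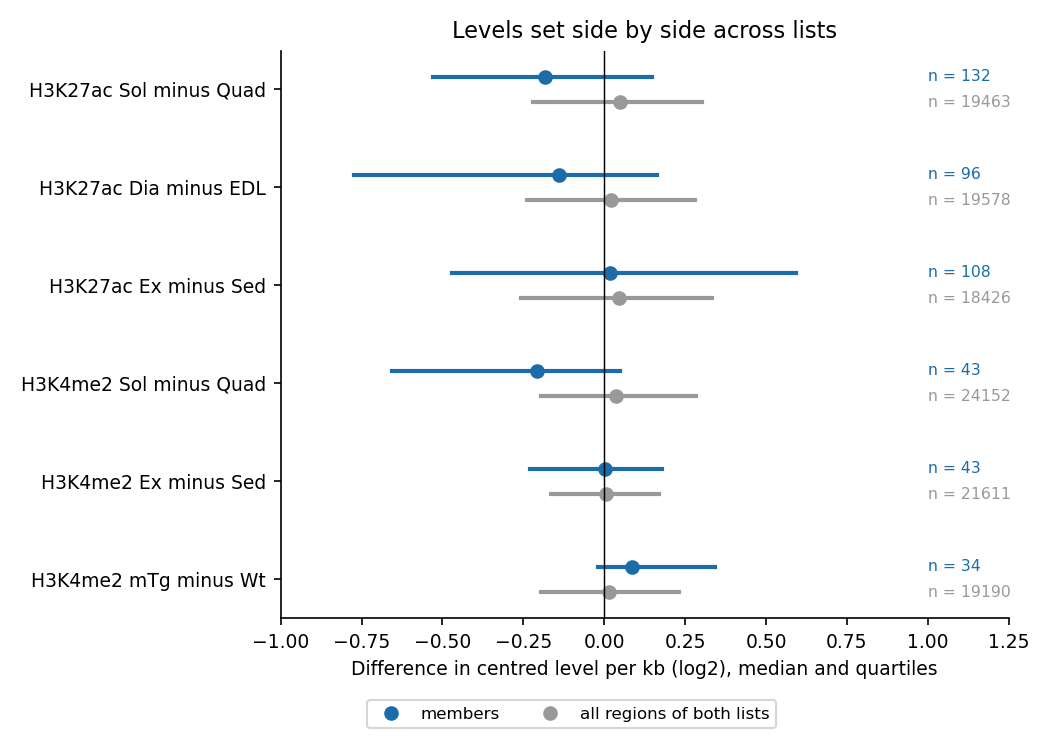
Differences between groups in centred log2 level per kb at members (blue) and at all regions matched in both lists (grey). Points are medians, bars quartiles, and n counts regions. Members lie below the background median in Sol minus Quad (−0.18 for H3K27ac) and near 0 in Ex minus Sed.

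H3K4me2 was measured in the same Wt and mTg groups and was not used to choose the regions. A peak was present at 141 of 391 members in Wt (36.1%, 31.5 to 40.9%) and at 118 in mTg (30.2%, 25.8 to 34.9%), against 58.9% and 36.9% of all Wt H3K27ac peaks. When a peak had to cover 50% of the region, the order turned, with 14.8% in Wt and 18.4% in mTg. 79 members had one in both groups, 62 in Wt only and 39 in mTg only. Depth of the mTg H3K4me2 libraries was 6.41 and 14.1 M tags, and their list held 27527 peaks against 46944 in Wt. At the 34 members matched in both lists, the median of mTg minus Wt was 0.08 (quartiles −0.02 and 0.34). 5 were lower without overlap (14.7%, against 26.1% of all matched regions) and 15 were higher (44.1%, against 28.2%). Without mTg replicate 1, the shallow library, the median was 0.21, and without centring it was −0.22.

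Individual sites went either way in H3K4me2. At Tpbgl, a promoter member (chr7:99625174-99629159), centred levels per kb were 1.13 and 0.98 in Wt and 0.62 and 0.22 in mTg, the largest fall at −0.63. Near the Pde10a start site (chr17:8523675-8526857) they were 0.16 and 0.20 against −0.25 and 0.20, and the groups overlapped. The largest rise, 0.82, was at Aif1l (chr2:31948459-31950913), with −0.90 and −0.87 in Wt and 0.01 and −0.14 in mTg. At Ctbp2, the gene of a corepressor (chr7:133087903-133091137), they were −0.98 and −1.13 against −0.29 and −0.23. Both of these rose in H3K4me2 level without overlap while the H3K27ac level was lower in mTg, by −0.55 at Aif1l and −0.82 at Ctbp2.

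Wheel running gave a contrast that the rule did not use, since it shares no library with Wt and mTg. 49 members (12.5%, 9.61 to 16.2%) overlapped a region of the list hypoacetylated in Ex, and 7 (1.79%) overlapped one of the list hyperacetylated in Ex. Among all Wt peaks the shares were 4.78% and 0.475%, and among the Quad-only regions 155 of 453 (34.2%, 30.0 to 38.7%) and 3 of 453. Since the authors selected both exercise lists for this contrast, the test adds no independent support, and its variance was pooled over each list. The 49 members overlapped 48 exercise regions, and all 48 were lower in Ex by limma (adjusted p under 0.05), as were 99.7% of the 2280 regions tested. All 7 of the hyperacetylated kind were higher, as were 99.7% of 382. Without Ex replicate 2, 26 of the 48 passed, and without Sed replicate 1, 0 of the 7 passed (7 at an unadjusted p under 0.05) and 0 of all 382.

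The largest falls under exercise were at Usp13, a deubiquitinase gene, where 2 members (chr3:32855104-32857682 and chr3:32852799-32854265) shared 1 exercise region. Its levels were 9.08 and 8.70 in Sed and 7.83 and 7.52 in Ex, a difference of −1.22 ± 0.21 (SE, limma adjusted p = 3.39e-06). At Ttc7b (chr12:100398190-100408371) they were 10.74 and 10.46 against 9.63 and 9.27, a difference of −1.16 ± 0.21 (limma adjusted p = 8.66e-06). The wide Pde4d site near Mir582 followed, with 10.81 and 10.43 against 9.83 and 9.30 and a difference of −1.05 ± 0.21 (limma adjusted p = 3.31e-05). The Mir152 site, which fell most in mTg, had 8.33 and 8.05 in Sed and 7.56 and 7.21 in Ex in the exercise region it overlaps (−0.80 ± 0.21). At these 5 members Ex and Sed did not overlap. The same held at all 49 members and all 155 Quad-only regions that overlapped this list, which the authors selected for this contrast. That H3K27ac was lower both with the transgene and with running therefore follows from the 2 lists. The SE of 0.21 was the same at the regions named here and does not measure the spread at a site.

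The members that gained H3K27ac with running and lost it with the transgene numbered 7. Slc8a1, the sodium-calcium exchanger gene, had the largest rise (chr17:81402782-81404893), with levels of 6.03 and 5.95 in Sed and 6.71 and 7.01 in Ex (0.87 ± 0.16, limma adjusted p = 0.000621), while its mTg minus Wt difference was −0.56. At Antxr2, the gene of an anthrax toxin receptor that binds collagen (chr5:97856201-97858078), levels were 6.36 and 6.38 against 6.92 and 7.36. Near Gin1, in an intron of Pam (chr1:97833454-97834986), they were 6.16 and 6.21 against 6.78 and 7.05. At Ptgs2os2, antisense to the cyclooxygenase-2 gene (chr1:150164552-150166032), they were 6.42 and 6.49 against 7.09 and 7.21. The other 3, named after their values were seen, lay near Saxo1, Fam198a and 2810032G03Rik, with differences of 0.59 to 0.68. Falls in mTg at the 7 were between −0.66 and −0.48.

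**Figure D5:**
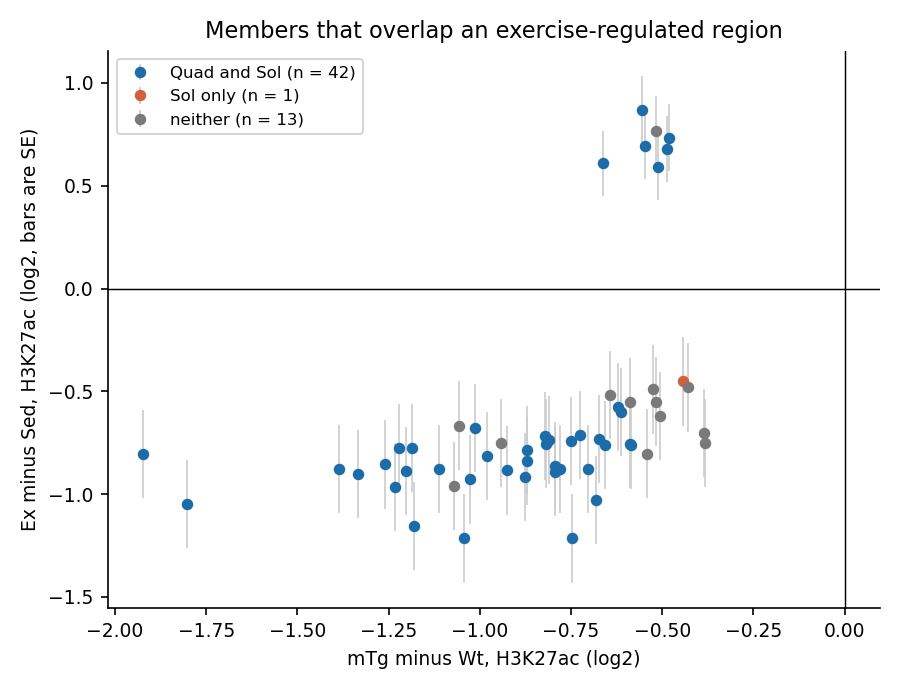
mTg minus Wt (log2, x axis) against Ex minus Sed (log2, y axis) at the 56 members that overlap an exercise-regulated region, by kind of place. Bars are limma SE, with variance pooled over each list. 49 lie below 0 and 7 above 0 on the y axis, as the authors' lists fix.

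When all members with a matched Sed and Ex peak were taken instead of those in the exercise lists, no common direction was seen. The median of Ex minus Sed was 0.02 at 108 members (quartiles −0.47 and 0.59), with 31 lower without overlap (28.7%, against 25.7%) and 41 higher (38.0%, against 31.0%). At 85 Quad-only regions the median was −0.50. For H3K4me2 the median of Ex minus Sed was 0.00 at 43 members.

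Accessible chromatin and factor peaks completed the description. An ATAC peak of control Quad overlapped 247 members (63.2%, 58.3 to 67.8%), with 71.1% in Quad and Sol, 65.4% in Sol only and 44.6% in neither, against 50.1% of all Wt peaks. MED1, a mediator subunit that marks strong enhancers, had a Quad peak at 4 members (1.02%, against 3.15% of Wt peaks) and a Sol peak at 3. The Quad MED1 sites included the wide regions near Mir582 and Gm19299. NFAT peaks of Sol overlapped 24 members (6.14%, 4.16 to 8.97%), against 2.65% of the Quad-only regions (1.52 to 4.57%) and 2.40% of Wt peaks. Of the Sol NFAT peaks, 2.76% were centred in a Wt H3K27ac peak, against 45.6% of the Sol MED1 peaks and 59.9% of the ATAC peaks. That share is below the 8.05 to 9.59% of 5 interval lists that were set aside as not on mm10. The genome build of the NFAT lists was not checked, so their overlaps cannot be read as NFAT binding. Members were wider than Wt peaks (median 1925 against 1250 bp), and width differed between kinds of place. The part of width was not tested in any overlap share by 1 bp, including those for NFAT, ATAC, EDL and the exercise lists. A Quad NFAT peak overlapped 0 of 391 members, and 23 of all Wt peaks. Each factor list belongs to 1 sample, so it has no replicate error.

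Markers of other cells in the muscle were read in the Wt and mTg H3K27ac lists. These were called and normalized separately, with 49010 and 36169 peaks, and no test was made. Regions near fibroblast and fibro-adipogenic markers had a median mTg minus Wt difference of −0.55 over 34 matched regions, and all 13 genes had a peak in both groups. The summed centred level of these regions (log2) was 5.65 to 5.91 in Wt and 5.15 to 5.24 in mTg. 2 members lay near such markers, Pdgfra (7.38 and 7.07 in Wt, 6.52 and 6.54 in mTg) and Cd34 (5.83 and 5.80 against 5.38 and 5.28). Endothelial regions were higher in mTg, with a median of 0.41 over 31 regions and summed levels of 4.74 to 4.92 against 5.19 to 5.34, and no member lay near those 14 genes. For 10 myofiber markers the sums were 6.60 to 6.64 and 6.65 to 6.67, which matches the labelled tissue. Of the satellite cell markers, 8 of 9 had a Wt peak and 5 an mTg peak, sums were 3.99 to 4.11 and 3.45, Calcr had none in either group, and 1 member lay near Chodl (4.66 and 4.63 against 4.06 and 4.21). Macrophage sums were 3.53 to 3.80 and 3.40 to 3.49, with no peak at C1qa, C1qb and Cx3cr1 in either group, and pericyte sums were 3.34 to 3.42 and 3.27 to 3.30. Adipocyte sums were 1.99 to 2.25 and 1.90 to 2.33 (no peak at Cidec and Retn), and Schwann sums 0.98 to 1.00 and 0.82 to 0.98. Median differences over matched regions were 0.01 (myofiber, 18 regions), −0.11 (satellite cell, 7) and −0.12 (macrophage, 16). They were 0.05 (pericyte, 10), −0.16 (adipocyte, 6) and 0.22 (Schwann, 5). For pericyte and Schwann markers the median was above 0 while the sums were lower in mTg. The part of cell content in the falls at members was not tested.

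The limits of the rule were sharp in position only. The members with the smallest overlap with a Sol peak were near Hic1 (chr11:75118247-75119739, 25 bp, 4.78 in Wt and 4.36 in mTg) and at Tmem123 (54 bp, 6.44 and 5.72). Just outside lay regions near Mir6364 (chr2:166632854-166634087), 119 bp from a Sol peak, with 5.51 and 5.03, and near Ddi2 (chr4:141724974-141728037), 182 bp away, with 6.88 and 6.18.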

How the data were processed

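H3K27ac and H3K4me2 ChIP-seq lists of 8 mouse muscle groups, with 2 libraries each, were used. The authors aligned reads to mm10 (the submitters' processing notes name Bowtie 1.2 and HOMER), kept 1 tag per position, and called peaks and differential regions in HOMER from both replicates. The hypoacetylated, hyperacetylated and exercise lists were called by the authors with DESeq2 at a 2-fold change and an FDR of 0.05. The deposited levels are log2 values, taken to be the regularized logarithm of DESeq2, scaled within each list, and columns of the authors' own fold changes and p-values were not used. ATAC values deposited by the authors are a signal from pooled control libraries (FDR 0.001, 4-fold over the local region), and the deposited MED1 and NFAT lists hold HOMER peak scores of 1 sample each. A further 5 interval lists were not used because 8.05 to 9.59% of their intervals were centred in a Wt H3K27ac peak, against 59.9% of the ATAC peaks, and they were therefore taken not to be on mm10. The NFAT lists had lower shares, 2.76% in Sol and 4.33% in Quad, but were kept, and their build was not checked.

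Members were found by overlap of 1 bp. The members and the gene lists were chosen with earlier results of these data known. Named were the 6 largest falls in each kind of place, the 2 largest in each pathway list, the 4 largest exercise-hypoacetylated and up to 4 hyperacetylated members, 2 largest falls and rises in H3K4me2, up to 6 genes nearest to 3 or more members, and the regions at the limit of the rule. Regions matched in 2 lists at 50% reciprocal overlap were compared per kb after centring, without a test. Ex and Sed levels were tested with limma 3.58.1 (R 4.3.3) over each whole exercise list with Benjamini-Hochberg adjustment, and the script was tested on simulated data. An exact permutation test of 2 against 2 libraries cannot go below p = 0.333. By the paper's methods each quadriceps sample came from 1 animal, so Sed and Ex replicates are taken to be different animals. Nothing else says how replicates differ. The limma p-values rest on variance pooled over lists selected for this contrast, so they are no independent support. At the regions named from the exercise-hypoacetylated list the SE was the same. There the p-value follows the size of the difference and does not measure the spread of replicates at a site. Intervals are Wilson 95%. Gene bodies came from GENCODE M21 and sequences from the GRCm38 (mm10) assembly of RefSeq. Replicates with the same number share only that number. Some genes of the lists are not reported here.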

Additional observations from a re-analysis of the deposited data

How the results depend on the processing

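Of 49 results under 166 alternatives, 134 values stayed within the spread or range allowed and 32 moved. Means over replicate pairs, with the same or crossed numbers, equal the main value by arithmetic and are among the 134. The fall from Wt to mTg kept its direction, also at the 18 leading regions in the 72 fits that left out a library. It could not reverse, since both mTg libraries lay below both Wt libraries at every region. Side-by-side medians were not scored for direction, and those of H3K4me2 mTg minus Wt and H3K27ac Ex minus Sed changed sign under some settings. Peaks above 4-fold gave 40 Sol-only regions and 180 in neither, and an overlap of 50% of the region gave 213 in neither. Members above the list's median level had a median fall of −0.74. At 50% overlap the shares with a peak were 14.8% (Wt H3K4me2), 18.4% (mTg H3K4me2), 67.5% (EDL) and 40.2% (Dia). Stronger ATAC peaks overlapped 34.0%. H3K4me2 mTg minus Wt was 0.18 at 1 bp, 0.57 per region and −0.22 without centring. Sol minus Quad was −0.33 at 1 bp, −0.070 at 80% and −0.40 per region, and Dia minus EDL was −0.38 per region. Alternatives chosen after seeing the data gave Ex minus Sed of −0.055 at 1 bp, 0.28 at 80% and −0.19 per region. In windows of 100 bp the word shares were 5.41% (TEAD and AP-1), 22.4% (E-box), 13.9% (nuclear receptor) and 12% (NFAT), and in 300 bp they were 18.9% (TEAD), 28.6% (nuclear receptor) and 33.6% (NFAT). The causes were not tested.

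Leaving out 1 library gave a range of 0.051 to 0.21 for H3K4me2 mTg minus Wt, −0.24 to −0.065 for Sol minus Quad, −0.34 (without Dia replicate 1) to −0.032 for Dia minus EDL and −0.013 to 0.067 for Ex minus Sed. The limma calls at exercise-hypoacetylated regions ran from 26 to 48 and at hyperacetylated regions from 0 to 7, where the lone library of a group is assumed to vary like the other group. With the replicate block, limma called 48 and 7 regions at members, as without it, and 2280 of 2280 and 382 of 382 over the whole lists (2274 and 381 without it), and the median H3K27ac difference was −0.61. Deviations of same-numbered libraries correlated at −0.24 (mTg and Wt), 0.11 and 0.14 (exercise lists) over 2 pairs, so no pairing was assumed. With crossed numbers, a pairing added after seeing the data, 391 regions were lower in both pairs, as with the same numbers. No pairing could give another count, since both mTg libraries lay below both Wt libraries at every region. Levels in lists of different groups depend on separate peak calls and scaling, and 2 libraries per group limit the precision.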
